A study of Mus musculus with 22 samples.

Results

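The RNA of 8 phosphatase subunit genes was followed across 3 brain regions and between genotypes, out of 23033 genes in the count table. The 8 genes were listed by name. They are the calcineurin catalytic subunit genes Ppp3ca, Ppp3cb and Ppp3cc, the calcineurin regulatory subunit gene Ppp3r1, the PP2A scaffold genes Ppp2r1a and Ppp2r1b, and the PP2A catalytic genes Ppp2ca and Ppp2cb. In the same mouse line, the study's proteomics of synaptosomes had the proteins of Ppp3cc and Ppp2r1b past its cutoffs between genotypes. Its western blots of synaptosomes did not bear out either change. Only RNA of whole regions was analysed here.

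Wild-type (WT) mice were compared with circTulp4-deficient (CD) mice, whose Tulp4 locus was edited with CRISPR-Cas9 in zygotes. The AG splice acceptor used to form the circular RNA circTulp4 was replaced by TC. A further change was designed in the protospacer adjacent motif. Per the study, circTulp4 was reduced but not absent in the CD brain, since the next AG downstream served as a weaker acceptor. The line descends from 1 mosaic founder male, is kept on C57BL/6, and carries the change in every cell. The CD mice are called KO in the sample descriptions, and the age and sex of the mice sequenced are not given in the sources used here. Whole hippocampus, cortex and cerebellum were dissected, and 3′ RNA-seq libraries (CelSeq2, which counts the 3′ ends of polyadenylated RNA) were made from 4 WT and 4 CD mice. The 22 libraries comprise 3 WT and 4 CD hippocampi, 4 WT and 4 CD cortices, and 4 WT and 3 CD cerebella.

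Calcineurin is the phosphatase that calcium switches on. A catalytic A subunit, encoded by Ppp3ca, Ppp3cb or Ppp3cc, is bound to a small calcium-binding B subunit, which is encoded by Ppp3r1 in the brain, and at synapses the enzyme is known for its part in long-term depression and in the removal of AMPA receptors. PP2A is a broadly acting serine and threonine phosphatase in which a scaffold A subunit (Ppp2r1a or Ppp2r1b) holds a catalytic C subunit (Ppp2ca or Ppp2cb) and 1 of many regulatory B subunits that choose the substrate.

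The libraries held 2757684 to 8847478 counts over the transcripts used, so that 5 cpm, counts per 1000000 counts of the library and the filter on low values, corresponded to 13.8 to 44.2 counts. The markers of the dissected region were highest in the libraries of that region: the summed hippocampus markers reached 1731 to 2534 cpm in hippocampus against at most 496 cpm elsewhere, and the summed cerebellum markers 7660 to 8590 cpm in cerebellum against at most 233 cpm elsewhere. As a check of the genotype labels, counts assigned to Tulp4-201 were set against those of Tulp4-209, which has another first exon in place of the one that lies in circTulp4. The excess of Tulp4-201 was 0.42 to 0.57 cpm in 3 CD hippocampi and 2.71 to 3.69 cpm in WT hippocampi. This excess served only to check labels and is not a level of linear Tulp4. For the sum of both transcripts the study found no genotype difference in brain by RT-qPCR. The library labelled CD hippocampus of mouse m118 had 3.98 cpm (16 counts), above all 3 WT hippocampi, so it goes against its label, and results that rest on it are given without it. In the cortex the highest CD value, 1.30 cpm (8 counts), lay below the lowest WT value, 1.45 cpm (4 counts). In the cerebellum these values were 2.62 cpm (19 counts) and 3.12 cpm (17 counts). In both pairs the CD library held more counts, so the order rests on library depth and the gap on few counts. Summed choroid plexus markers ranged from 133 to 8242 cpm between hippocampus libraries, and their part in the results was not tested. The values below are cpm scaled by TMM (trimmed mean of M values) over the 22 libraries, and fold changes are log2 values with their standard error.

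**Figure D1:**
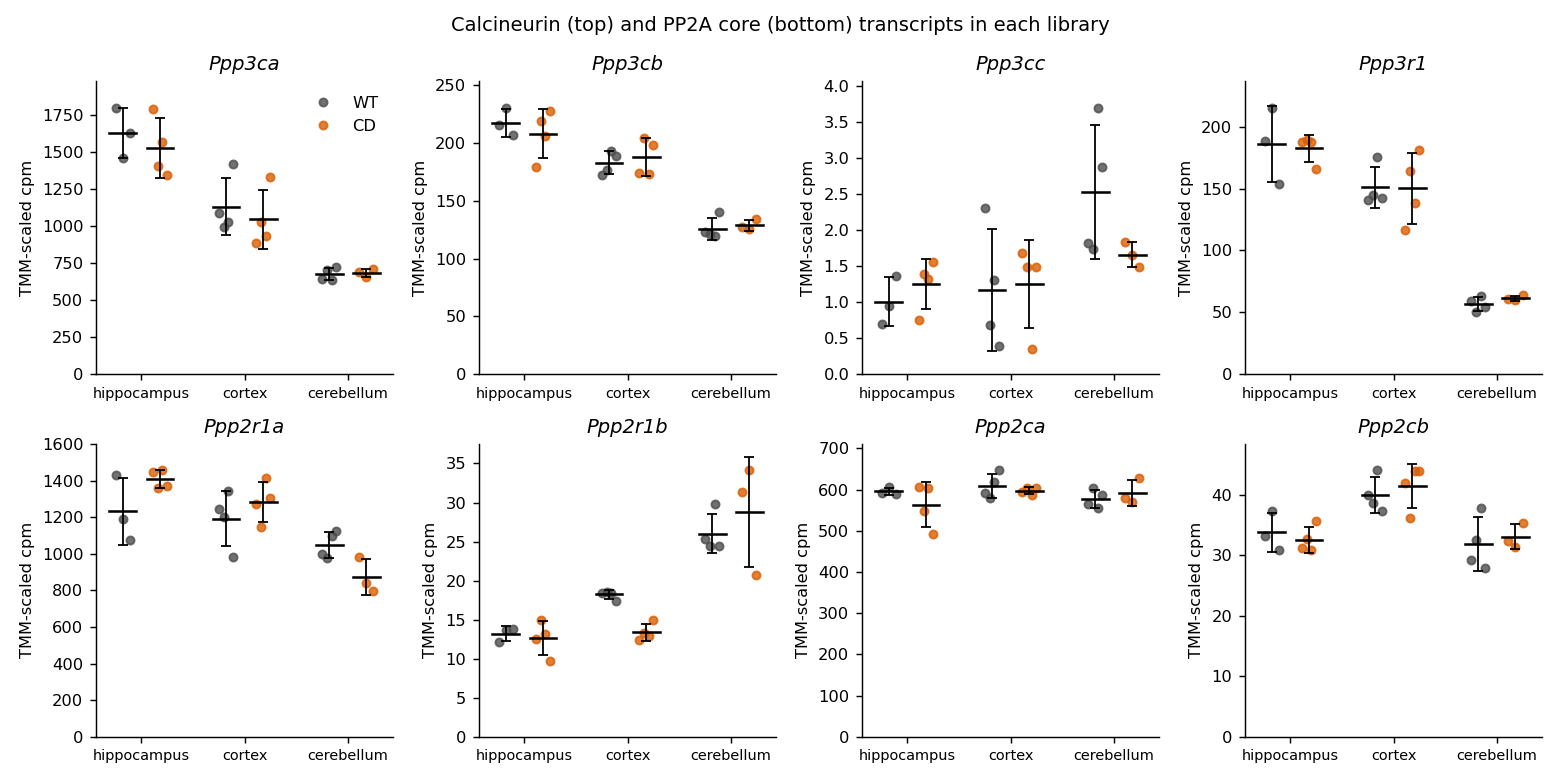
Each point is 1 library (grey WT, orange CD), on a linear axis of TMM-scaled cpm that starts at 0 and differs between genes; horizontal bars are group means and error bars SDs (n = 3 or 4 libraries). Ppp3ca, Ppp3cb and Ppp3r1 were lowest and Ppp2r1b highest in cerebellum, and the WT and CD cortex values of Ppp2r1b, 17.4 to 18.5 and 12.4 to 14.9 cpm, did not overlap.

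The promoter sequences of the regulatory calcineurin gene, of 1 catalytic gene and of both scaffold genes are shown because all 4 genes passed between cerebellum and the other regions, as described next, and the scaffold pair did so in opposite directions. The windows are the 250 bases before the annotated start (RefSeq, GRCm38.p6, read 5′ to 3′ on the strand of the gene), and entries were matched for 5 of the 8 members. Capitals mark matches on either strand to the GC box (GGGCGG, which can overlap itself), the CCAAT box (CCAAT), the TATA box (TATAAA) or the cAMP response element TGACGTCA, and adjacent or overlapping matches run together.
Ppp3r1: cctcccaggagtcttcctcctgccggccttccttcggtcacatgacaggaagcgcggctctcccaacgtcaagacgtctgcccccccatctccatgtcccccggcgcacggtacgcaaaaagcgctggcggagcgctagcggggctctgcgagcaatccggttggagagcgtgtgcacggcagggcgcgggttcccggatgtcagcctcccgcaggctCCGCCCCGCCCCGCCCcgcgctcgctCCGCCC
Ppp3cb: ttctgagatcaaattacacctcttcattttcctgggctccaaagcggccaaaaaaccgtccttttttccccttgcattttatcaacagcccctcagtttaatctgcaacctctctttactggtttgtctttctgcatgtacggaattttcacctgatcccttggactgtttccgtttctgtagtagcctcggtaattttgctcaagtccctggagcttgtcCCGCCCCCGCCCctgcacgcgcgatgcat
Ppp2r1a: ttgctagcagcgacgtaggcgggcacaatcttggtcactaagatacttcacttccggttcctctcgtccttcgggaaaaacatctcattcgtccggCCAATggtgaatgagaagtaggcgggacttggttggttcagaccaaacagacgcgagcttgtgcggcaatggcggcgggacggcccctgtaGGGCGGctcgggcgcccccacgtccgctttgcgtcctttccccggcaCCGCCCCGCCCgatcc
Ppp2r1b: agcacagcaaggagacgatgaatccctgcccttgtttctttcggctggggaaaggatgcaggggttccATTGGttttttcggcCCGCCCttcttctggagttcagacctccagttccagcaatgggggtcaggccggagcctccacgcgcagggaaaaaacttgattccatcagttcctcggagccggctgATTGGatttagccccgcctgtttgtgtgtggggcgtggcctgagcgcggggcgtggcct
They lie at chr11:17159048-17159297 (plus strand), chr14:20546574-20546823 (minus strand), chr17:20945204-20945453 (plus strand) and chr9:50856674-50856923 (plus strand). The Ppp2r1b window precedes a transcript start at 50856924, so its end reaches into the locus given below, which begins at 50856896. The Ppp2r1b transcript used for the counts starts at 50856937. Annotated starts also differ for Ppp3r1 and Ppp2r1a. In the GENCODE annotation the matching transcripts start inside the windows, at 17159263 for Ppp3r1 and at 20945311 for Ppp2r1a. All GC boxes marked in the Ppp3r1 and Ppp2r1a windows lie downstream of those GENCODE starts, so they are upstream only of the RefSeq starts. The Ppp3r1 window held 4 GC boxes, that of Ppp3cb 2, that of Ppp2r1a 3 and that of Ppp2r1b 1, and 32.7% of 32851 promoter windows of this length held at least 1. CCAAT was found in Ppp2r1a (1 match) and Ppp2r1b (2 matches) and in 33.8% of all windows. TATAAA, in 12.4% of all windows, and TGACGTCA, in 1.55%, were not found in these 4. The GC content was 70.8% for Ppp3r1, 48.4% for Ppp3cb, 61.6% for Ppp2r1a and 59.2% for Ppp2r1b. These matches describe the letters of the windows only, and no measurement of factor binding was analysed here.

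The calcineurin genes that could be tested, Ppp3ca, Ppp3cb and Ppp3r1, were lower in cerebellum than in both forebrain regions. Ppp3ca (GRCm38 chr3:136669714-136937727, plus strand), a catalytic isoform abundant in forebrain neurons, had 1342 cpm in the lowest, 1569 in the median and 1800 in the highest of 7 hippocampus libraries, 886, 1027 and 1416 cpm in 8 cortices, and 638, 687 and 722 cpm in 7 cerebella. No cerebellum overlapped with the libraries of either other region, and the levels of the cortex lay between, with its highest library inside the range of the hippocampus. Ppp3ca was 2.32-fold lower in cerebellum than in hippocampus (log2 fold change -1.22 ± 0.10, FDR 6.5e-11 by the quasi-likelihood test of edgeR), 1.60-fold lower than in cortex (-0.68 ± 0.09, FDR 8.3e-07), and 1.45-fold lower in cortex than in hippocampus (-0.54 ± 0.09, FDR 4.5e-05). It was lower in cortex than in hippocampus of the same mouse in 7 of 7 mice. Whether such a difference is fewer cells of a type or less RNA per cell cannot be told apart in whole tissue.

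Ppp3cb (chr14:20499364-20546573, minus strand), which encodes the other neuronal catalytic isoform, had 179 to 231 cpm in hippocampus (median 215), 172 to 205 cpm in cortex (median 183) and 119 to 140 cpm in cerebellum (median 125). The cerebella again lay apart from all other libraries. Ppp3cb was 1.67-fold lower in cerebellum than in hippocampus (-0.74 ± 0.07, FDR 1.2e-09) and 1.45-fold lower than in cortex (-0.54 ± 0.07, FDR 1.7e-07). Between cortex and hippocampus its log2 fold change of -0.20 ± 0.07 did not pass (FDR 0.019), although the cortex was the lower in 7 of 7 mice. Without the CD hippocampus of m118, which had the lowest Ppp3cb of its region (179 cpm), this difference passed (-0.24, FDR 0.0060).

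The largest difference among the members was that of Ppp3r1 (chr11:17159298-17200380, plus strand), the calcium-binding regulatory subunit. Its 7 hippocampi had 154 to 215 cpm (median 187), its 8 cortices 116 to 181 cpm (median 144) and its 7 cerebella 50.03 to 63.6 cpm (median 60.0). All cerebella were below all other libraries, whereas hippocampus and cortex overlapped. Ppp3r1 was 3.13-fold lower in cerebellum than in hippocampus (-1.64 ± 0.10, FDR 1.5e-13) and 2.55-fold lower than in cortex (-1.35 ± 0.09, FDR 3.8e-12), while -0.29 ± 0.09 between cortex and hippocampus did not pass (FDR 0.012). It passed without the WT hippocampus of m244 (-0.35, FDR 0.0037), the WT cortex of m240 (-0.33, FDR 0.0058) or the CD cortex of m242 (-0.34, FDR 0.0034), each left out alone. A list of 5 genes taken as markers of excitatory neurons was also lowest in cerebellum. It holds none of the cerebellum markers, such as Neurod1 and Cbln3, so it does not measure how many excitatory neurons the cerebellum has. The 5 listed genes summed to 10941 to 13267 cpm in hippocampus, 14072 to 20463 cpm in cortex and 494 to 756 cpm in cerebellum. In cerebellum 4 of 5 still averaged at least 5 cpm and none was at 0. Most of the sum was Nrgn (medians of 9381, 15008 and 309 cpm in hippocampus, cortex and cerebellum). Slc17a7 differed less (490, 529 and 225 cpm), and all 5 had their lowest median in cerebellum. The 8 pan-neuronal markers summed to 6688 to 7518, 8001 to 9267 and 7152 to 8799 cpm in the 3 regions. Other lists were lowest in cerebellum too. Microglia markers summed to 226 to 280 cpm there and to at least 564 cpm elsewhere, and interneuron markers to 1881 to 2213 and at least 3974 cpm. Most of the interneuron sum was Sst, whereas Gad1, Gad2, Pvalb and Slc32a1 had their highest medians in cerebellum. Summed astrocyte markers were highest in cerebellum. The part of cell composition in the calcineurin differences was not tested.

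Ppp3cc (chr14:70217864-70289536, minus strand), the catalytic isoform best known from testis, was close to the limit of detection in this table. Between 1 and 20 counts were found per library, and no library reached 5 cpm, so it was not tested with the other genes. Its summed counts were 55 in hippocampus, 58 in cortex and 89 in cerebellum, which correspond to 1.18 cpm (95% exact Poisson interval 0.89 to 1.54), 1.32 cpm (1.01 to 1.71) and 2.11 cpm (1.70 to 2.60). These intervals cover counting error alone. The values of single libraries overlapped between all regions, from 0.69 to 1.55 cpm in hippocampus, 0.35 to 2.31 cpm in cortex and 1.49 to 3.70 cpm in cerebellum. With no filter on low values, edgeR gave a log2 fold change of 0.84 ± 0.38 for the cerebellum against the hippocampus, which did not pass (FDR 0.070). A low count in this table does not by itself show that an mRNA is scarce, since Ppia, a cyclophilin gene that every cell uses, had medians of only 1.6 to 3.2 cpm. The Ppp3cc locus overlaps with lncRNA genes on the opposite strand, by 181 bases with Gm26908 and by 7086 bases with Gm33790. Each of these had 3 counts over the 22 libraries, and whether counting used strand is not stated.

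The PP2A scaffold genes differed between regions in opposite directions. Ppp2r1a (chr17:20945454-20965905, plus strand) had 1073 to 1456 cpm in hippocampus (median 1373), 983 to 1415 cpm in cortex (median 1256) and 796 to 1122 cpm in cerebellum (median 982). The ranges overlapped in every pair of regions. Ppp2r1a was 1.38-fold lower in cerebellum than in hippocampus (-0.46 ± 0.08, FDR 2.3e-05) and 1.29-fold lower than in cortex (-0.37 ± 0.08, FDR 0.00022). Both calls were lost in the WT libraries alone (-0.24, FDR 0.14, and -0.19, FDR 0.20), and both passed in the CD libraries alone (-0.69, FDR 3.2e-05, and -0.55, FDR 0.00027).

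Ppp2r1b (chr9:50856896-50899325, plus strand), the other scaffold gene, was highest where Ppp2r1a was lowest. It had 9.75 to 14.9 cpm in hippocampus (median 13.2), 12.4 to 18.5 cpm in cortex (median 16.2) and 20.7 to 34.1 cpm in cerebellum (median 25.4). Its cerebella were above all 15 other libraries. Ppp2r1b was 2.10-fold higher in cerebellum than in hippocampus (1.07 ± 0.11, FDR 1.0e-08) and 1.74-fold higher than in cortex (0.80 ± 0.11, FDR 6.2e-07), and the cortex against the hippocampus gave 0.27 ± 0.11 (FDR 0.064). Summed astrocyte markers (8 genes) were also highest in cerebellum, at 6709 to 7987 cpm against 4269 to 4832 cpm in hippocampus and 4144 to 4822 cpm in cortex. Of these, Aldoc was highest in cerebellum (medians of 5515, 1963 and 2465 cpm in cerebellum, hippocampus and cortex), whereas Slc1a2, the glial glutamate transporter, was lowest in cerebellum (357, 1205 and 1405 cpm), and the part of astrocytes in the result was not tested. The counts come almost wholly from 1 of its 3′ ends. The transcript used, Ppp2r1b-202 in the GENCODE annotation, ends at position 50881431 of chromosome 9 (GRCm38) and had 2405 counts over the 22 libraries, 99.1% of the counts at both ends, while Ppp2r1b-201, which ends at 50894229, had 21. Sik2, a kinase gene on the opposite strand, covers the last 9682 bases of the Ppp2r1b locus from 50889644 on, downstream of the end that was counted.

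Of the PP2A catalytic genes, Ppp2ca passed between no pair of regions. Ppp2ca (chr11:52098824-52122749, plus strand) had 492 to 607 cpm in hippocampus, 580 to 647 cpm in cortex and 555 to 629 cpm in cerebellum, with medians of 591, 599 and 579 cpm. The 3 ranges overlapped, and the log2 fold changes of 0.06 ± 0.06, 0.01 ± 0.06 and -0.04 ± 0.06 (cortex against hippocampus, cerebellum against hippocampus and cerebellum against cortex) did not pass, with FDR of 0.48 to 0.85. Their 95% intervals ran from -0.16 at the lowest to 0.18 at the highest. With the total of the whole table as library size in place of TMM, the cerebellum against the cortex gave 0.11 (FDR 0.084).

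Ppp2cb (chr8:33599621-33619804, plus strand), the other catalytic gene, was highest in cortex, with 36.2 to 44.1 cpm (median 41.0) against 30.9 to 37.3 cpm in hippocampus (median 32.6) and 27.8 to 37.9 cpm in cerebellum (median 32.4). Only the lowest cortices reached into the ranges of the other regions. It was 1.23-fold higher in cortex than in hippocampus (0.29 ± 0.08, FDR 0.0058; higher in 7 of 7 mice) and 1.26-fold lower in cerebellum than in cortex (-0.33 ± 0.08, FDR 0.0012; lower in 7 of 7 mice). The first call was lost in 8 of 22 fits that left out 1 library, the CD hippocampus of m118 among them (0.28, FDR 0.012), and with the table total as library size (0.26, FDR 0.016), which also ended the second call (-0.17, FDR 0.075). The cerebellum against the hippocampus gave -0.04 ± 0.08 (FDR 0.74) and 0.09 with the table total. Ubxn8, a gene on the opposite strand, covers the last 219 bases of the Ppp2cb locus from 33619586 on. That stretch lies downstream of 33619441, the end of the matching transcript Ppp2cb-201 in the GENCODE annotation. Counting was by RefSeq transcript and its use of strand is not stated, so counts from Ubxn8 are not excluded.

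**Figure D2:**
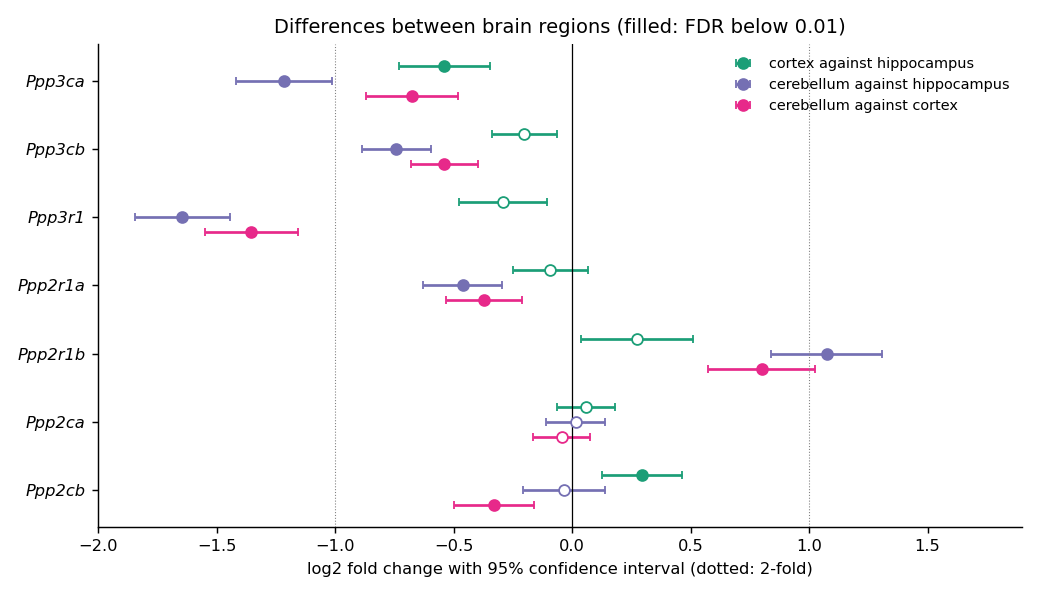
The horizontal axis is the log2 fold change between regions over 22 libraries, points are estimates and bars 95% confidence intervals; filled points passed at an FDR below 0.01, and dotted lines mark a 2-fold difference. All calcineurin genes tested lay on the lower side in cerebellum, Ppp2r1b lay on the higher side, and Ppp2ca stayed within 0.18 of 0 in every interval.

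Of the 8 members, 7 passed the filter. At an FDR below 0.01, 2 of 7 differed between cortex and hippocampus (1 higher, 1 lower in cortex), where 25.9% of the 11133 genes tested did (13.5% higher, 12.4% lower). Between cerebellum and hippocampus 5 of 7 passed (1 higher, 4 lower), beside 50.7% of all genes (24.7% higher, 26.0% lower), and between cerebellum and cortex 6 of 7 (1 higher, 5 lower), beside 51.7% (25.7% higher, 26.0% lower). The members' shares were thus near those of all genes in the first pair of regions and somewhat above them in the other two. With a difference of over 2-fold also required, as the study does, 0, 3 and 1 members passed, beside 8.42%, 22.8% and 22.6% of all genes. The libraries of cerebellum and hippocampus did not overlap for 4 members (Ppp3ca, Ppp3cb, Ppp3r1 and Ppp2r1b), beside 35.9% of genes, and those of cerebellum and cortex for the same 4, beside 32.9%. Those of cortex and hippocampus overlapped for every member, beside 14.0% of genes without overlap. The 3 comparisons share libraries. Without the CD hippocampus of m118 the counts were also 2, 5 and 6 members, but between cortex and hippocampus Ppp2cb no longer passed (FDR 0.012) and Ppp3cb did (-0.24, FDR 0.0060). With the table total as library size the median of all genes moved by 0.12 in cerebellum against the hippocampus and by 0.16 against the cortex, and the higher share of the calls moved from 48.8% to 59.6% and from 49.7% to 62.8%. All calls on Ppp3ca, Ppp3cb, Ppp3r1 and Ppp2r1b in cerebellum remained under that scaling, whereas those of Ppp2r1a and Ppp2cb against the cortex were lost (Ppp2r1a -0.21, FDR 0.017).

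The balance of subunits was then compared within each library, as a ratio of counts, which does not depend on the scaling of libraries. The ratios are read only as differences between samples, since counts of different genes are not on a common scale. Of 12 regional comparisons, 9 passed at an adjusted p below 0.05 (two-sided exact sign-flip permutation test over mice with both regions, Benjamini-Hochberg over 12). The ratio of Ppp2r1a to Ppp2r1b had a median of 110.1 in hippocampus, 79.6 in cortex and 38.4 in cerebellum, and all 7 cerebella (24.5 to 45.8) were below all other libraries (56.4 to 141). It was 3.00-fold lower in cerebellum than in hippocampus of the same mouse (log2 difference -1.58 ± 0.51, SD, n = 6 mice, exact p = 0.031, adjusted p = 0.042) and 2.17-fold lower than in cortex (-1.12 ± 0.64, SD, n = 7, exact p = 0.016, adjusted p = 0.031). These p values are the smallest that 6 and 7 mice can give, and every mouse showed the direction. With m118, m162, m190, m240, m242 or m244 left out, none of the 12 passed (adjusted p = 0.054 or above by the same exact test), and all 9 differences kept their direction. Each of these mice has libraries of every region, so leaving it out raises the smallest p that the remaining mice can give. The loss of calls therefore does not show that the ratios rest on single mice.

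The regulatory gene Ppp3r1 set against the sum of Ppp3ca and Ppp3cb was also lower in cerebellum. The ratio ranged from 0.0607 to 0.0832 in the cerebella and from 0.0836 to 0.144 in the other libraries, without overlap. Within mice it was 1.35-fold lower in cerebellum than in hippocampus (-0.43 ± 0.11, SD, n = 6, exact p = 0.031, adjusted p = 0.042) and 1.60-fold lower than in cortex (-0.68 ± 0.18, SD, n = 7, exact p = 0.016, adjusted p = 0.031). It was 1.14-fold higher in cortex than in hippocampus (0.19 ± 0.06, SD, n = 7, exact p = 0.016, adjusted p = 0.031).

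The catalytic isoforms also shifted. The Ppp3ca to Ppp3cb ratio was 1.43-fold lower in cerebellum than in hippocampus (-0.52 ± 0.27, SD, n = 6, exact p = 0.031, adjusted p = 0.042), and 1.26-fold lower in cortex than in hippocampus, which missed the adjusted threshold (-0.34 ± 0.36, SD, n = 7, exact p = 0.047, adjusted p = 0.056; lower in 6 of 7 mice). The Ppp2ca to Ppp2cb ratio was 1.24-fold higher in cerebellum than in cortex (0.31 ± 0.12, SD, n = 7, exact p = 0.016, adjusted p = 0.031) and 1.18-fold lower in cortex than in hippocampus (-0.23 ± 0.21, SD, n = 7, exact p = 0.016, adjusted p = 0.031). Cerebellum and hippocampus gave 0.04 ± 0.20 (SD, n = 6, exact p = 0.69), with 3 mice in each direction.

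**Figure D3:**
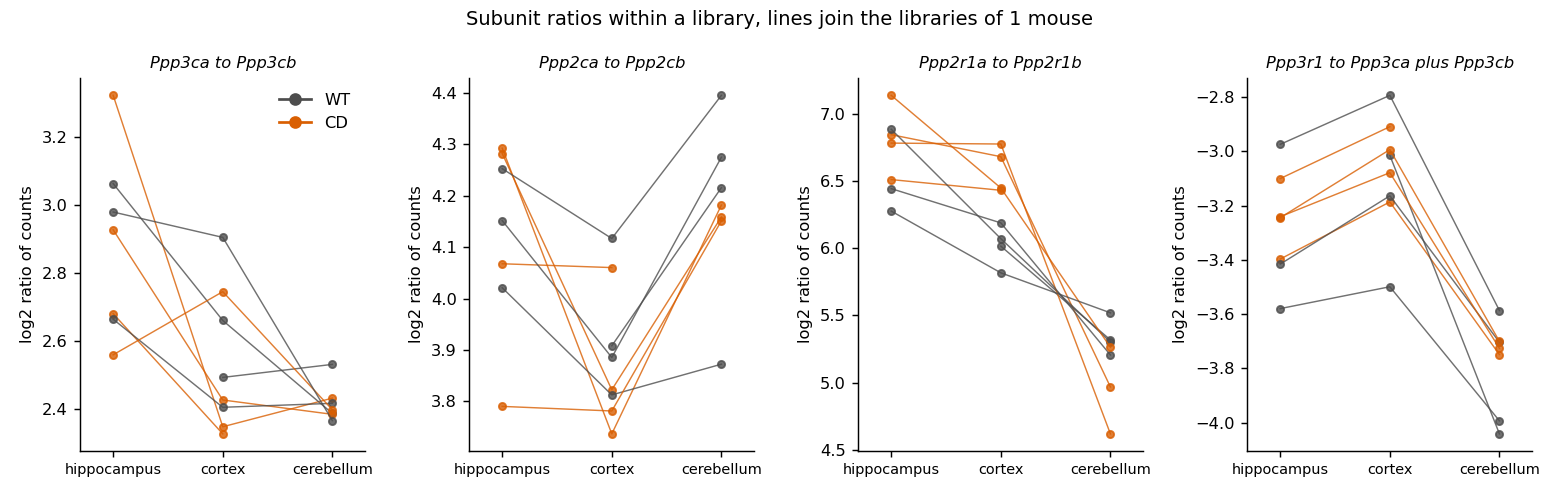
Each panel gives the log2 ratio of counts of the subunit genes named above it, each point is 1 library, and lines join the regions of 1 mouse (grey WT, orange CD). In all mice with both regions the Ppp2r1a to Ppp2r1b ratio and the Ppp3r1 ratio were lower in cerebellum than in cortex, while the Ppp2ca to Ppp2cb ratio was higher.

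Between genotypes no member passed in any region. None of the 7 members tested was called at an FDR below 0.01 in hippocampus, cortex or cerebellum (edgeR), beside 0.0% of 9960, 9924 and 10137 genes. At an unadjusted p below 0.05, 420, 329 and 461 genes stood in the 3 regions, 4.22%, 3.32% and 4.55%, and of the members 0, 1 and 1. DESeq2 called 2, 1 and 0 genes, none of them a member. In 3 regions together (limma voom with mouse as random block) 0.0% of 11133 genes and no member were called, with 398 genes (3.57%) at an unadjusted p below 0.05, none of them a member. The 95% intervals of the log2 fold change in single regions ran from -0.76 to 0.50 over the 7 members tested, so differences of 2-fold lay outside each of them.

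Ppp2r1b in cortex was the member with the lowest p. Its WT cortices had 18.5 (m162), 18.5 (m164), 18.4 (m240) and 17.4 cpm (m244), and its CD cortices 12.4 (m118), 13.3 (m138), 12.9 (m190) and 14.9 cpm (m242). The groups did not overlap, which held for 2.54% of the genes tested in cortex. The log2 fold change of CD against WT was -0.45 ± 0.15 (p = 0.0078 by the quasi-likelihood test, FDR 0.9997, place 39 of 9924 by p), and the exact permutation test on log2(cpm + 0.5) gave p = 0.029, the smallest possible with 4 against 4 libraries, among 24 such tests of members and regions. Leaving out each library in turn gave -0.51 to -0.41, with p of 0.0079 to 0.024 by edgeR. In the other regions the groups overlapped, for Ppp2r1b as for each other member, beside 5.43% of genes without overlap in hippocampus and 5.34% in cerebellum. WT and CD hippocampi had 12.1, 13.7 and 13.8 cpm and 12.6, 14.9, 13.2 and 9.75 cpm (-0.06 ± 0.18, FDR 0.998), and WT and CD cerebella 25.4, 24.5, 29.8 and 24.5 cpm and 31.4, 34.1 and 20.7 cpm (0.13 ± 0.17, FDR 0.98).

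Ppp2r1a, the other scaffold gene, had the lowest p of the members in cerebellum. The WT cerebella had 1001 (m162), 977 (m164), 1098 (m240) and 1122 cpm (m244), and the CD cerebella 982 (m118), 838 (m190) and 796 cpm (m242). The CD library of m118 lay just above the lowest WT library, so the groups overlapped. The fold change was -0.26 ± 0.10 (p = 0.024, FDR 0.98; exact permutation p = 0.057; leaving out each library in turn, -0.36 to -0.20 with edgeR p of 0.0070 to 0.11), against 0.20 ± 0.11 in hippocampus (FDR 0.998) and 0.10 ± 0.12 in cortex (FDR 0.9997). Whether the genotype difference differed between regions was tested by an interaction term in edgeR, with an unadjusted value of 0.020 for Ppp2r1a and 0.042 for Ppp2r1b and an FDR of 0.999 for each. None of the 11133 genes passed this interaction test at an FDR below 0.05 (edgeR; 436 at an unadjusted p below 0.05, 3.92%).

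For the remaining members the estimates were small beside their errors. Calcineurin gave log2 fold changes in hippocampus of -0.09 ± 0.12 for Ppp3ca, -0.06 ± 0.11 for Ppp3cb and -0.03 ± 0.12 for Ppp3r1. The corresponding values were -0.12 ± 0.15, 0.03 ± 0.10 and -0.01 ± 0.14 in cortex and 0.02 ± 0.09, 0.04 ± 0.10 and 0.12 ± 0.11 in cerebellum. Ppp2ca ranged from -0.08 ± 0.10 in hippocampus to 0.04 ± 0.09 in cerebellum, and Ppp2cb from -0.05 ± 0.12 to 0.06 ± 0.13. Without the CD hippocampus of m118 the hippocampus gave -0.17 for Ppp3ca, 0.01 for Ppp3cb, -0.03 for Ppp3r1, 0.19 for Ppp2r1a, -0.05 for Ppp2r1b, -0.11 for Ppp2ca and -0.03 for Ppp2cb, and the count of calls was still 0. Ppp3cc did not pass the filter on low values, and edgeR with no filter gave 0.37 ± 0.58 in hippocampus (FDR 0.96), -0.016 ± 0.56 in cortex (FDR 0.999) and -0.60 ± 0.46 in cerebellum (FDR 0.87). Its means were 1.003 and 1.25 cpm in WT and CD hippocampi, 1.17 and 1.26 in the cortices and 2.53 and 1.66 in the cerebella. The cerebella of WT mice had 1.81, 1.74, 3.70 and 2.87 cpm and those of CD mice 1.84, 1.65 and 1.49 cpm, which overlapped (exact permutation p = 0.20). No subunit ratio passed between genotypes. The lowest p was that of Ppp2r1a to Ppp2r1b in cortex, 1.48-fold higher in CD (0.56, exact permutation p = 0.029, adjusted p = 0.34 over 12), and in cerebellum the same ratio gave -0.39 (exact permutation p = 0.057).

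**Figure D4:**
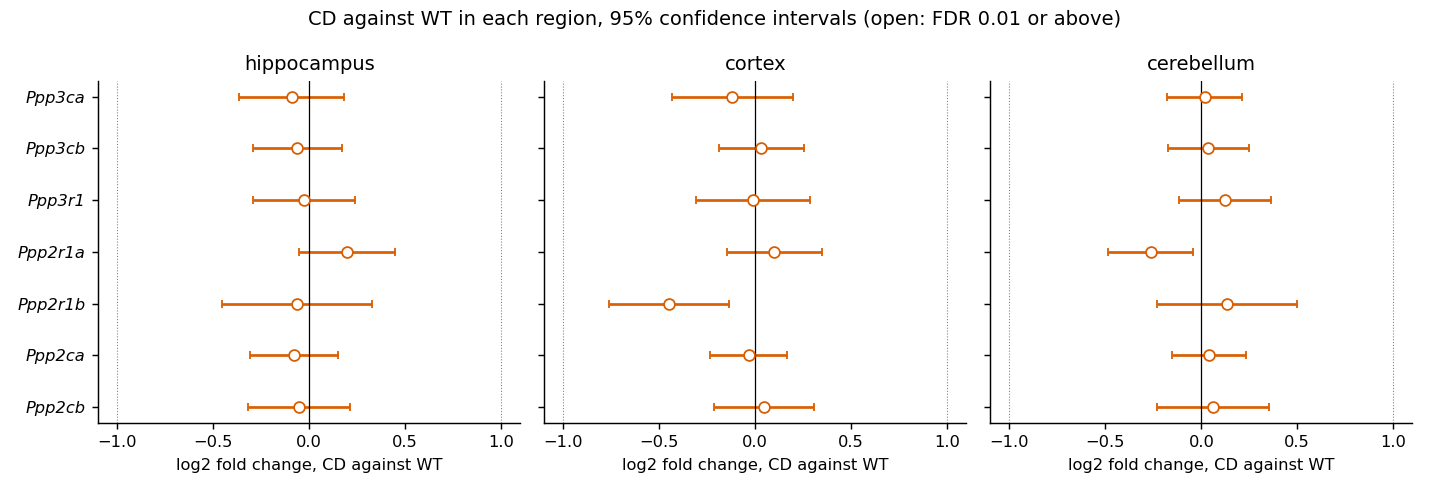
The horizontal axis is the log2 fold change of CD against WT in each region, points are edgeR estimates and bars 95% confidence intervals; dotted lines mark a 2-fold difference. The intervals include 0 for all members except Ppp2r1b in cortex and Ppp2r1a in cerebellum, and no member passed at an FDR below 0.01.

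Regulators, substrates and partner subunits were read from 5 lists of 51 genes, of which 43 could be tested between regions. At an FDR below 0.01, 12 differed between cortex and hippocampus (8 higher and 4 lower in cortex), beside 25.9% of all genes. Between cerebellum and hippocampus 26 differed (7 higher, 19 lower), beside 50.7% of all genes (24.7% higher, 26.0% lower), and between cerebellum and cortex 31 (10 higher, 21 lower), beside 51.7% (25.7% higher, 26.0% lower). The same shares of all genes stand beside the counts of each list that follow. None of the 42, 41 and 43 tested between genotypes was called, and at an unadjusted p below 0.05 (edgeR) there were 2, 0 and 1, beside 4.22%, 3.32% and 4.55% of all genes.

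Of 11 calcineurin regulators and anchors, 10 were tested, and in cerebellum 8 were lower and 1 higher than in cortex (median log2 fold change -0.67, beside 0.02 over all genes, of which 26.0% were lower and 25.7% higher), and 6 lower and 1 higher than in hippocampus. Akap5, which anchors calcineurin at the postsynaptic membrane, had 19.5 to 31.7 cpm in cortex and 2.7 to 5.7 cpm in cerebellum, 6.50-fold lower (-2.70 ± 0.16, FDR 9.2e-14). Fkbp1a, the target through which FK506 blocks calcineurin, was 2.37-fold lower in cerebellum than in hippocampus (-1.24 ± 0.10, FDR 7.8e-11). Rcan3 moved the other way. This member of the calcineurin regulator family had 11.7 to 16.1 cpm in cortex and 61.1 to 85.8 cpm in cerebellum (5.46-fold higher, 2.45 ± 0.10, FDR 1.9e-16), whereas its relative Rcan1 was lower in cerebellum than in cortex (-0.99 ± 0.12, FDR 6.9e-08). Another relative, Rcan2, was 2.05-fold higher in cortex than in hippocampus (1.03 ± 0.10, FDR 6.6e-09).

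Calcineurin substrates moved in both directions: of 8 tested, 3 were higher and 3 lower in cerebellum than in cortex, beside 25.7% and 26.0% of all genes. Ppp1r1a, which encodes inhibitor 1 of protein phosphatase 1, was 6.67-fold lower (-2.74 ± 0.14, FDR 9.4e-15), with 109 to 188 cpm in cortex and 16.6 to 31.4 cpm in cerebellum. Its relative Ppp1r1b (DARPP-32), known from dopamine signalling, was 2.83-fold higher in cerebellum than in hippocampus (1.499 ± 0.15, FDR 2.8e-09). Nfatc2, a transcription factor that calcineurin sends to the nucleus, was 3.58-fold higher in cerebellum than in cortex (1.84 ± 0.15, FDR 5.0e-11) and 2.36-fold lower in cortex than in hippocampus (-1.24 ± 0.15, FDR 2.2e-07). Its relative Nfatc3 was also called higher in cerebellum than in cortex (1.32 ± 0.31, FDR 0.00064), at only 1.9 to 4.8 cpm. Its highest cortex and hippocampus libraries had 2.3 and 2.5 cpm. Nfatc3 therefore passed the filter, which used unscaled cpm, only through cerebella, the group where it is high. Its call, 1 of the 3 higher substrates, is for that reason no support for a difference. Crtc1, a CREB coactivator, was 1.57-fold lower in cerebellum than in hippocampus (-0.65 ± 0.09, FDR 1.2e-06).

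Among 12 PP2A regulatory B subunit genes tested, 7 were lower and 1 higher in cerebellum than in hippocampus (all genes, 26.0% and 24.7%), and 6 lower and 2 higher than in cortex (all genes, 26.0% and 25.7%). Ppp2r2b, a brain B subunit, was 4.18-fold lower in cerebellum than in cortex (-2.06 ± 0.13, FDR 5.9e-13), with 54.0 to 78.0 cpm in cortex and 12.4 to 21.8 cpm in cerebellum. Ppp2r5c was 2.45-fold lower (-1.29 ± 0.09, FDR 4.0e-12) and the striatin gene Strn4 2.32-fold lower (-1.21 ± 0.09, FDR 8.3e-12). In the cortex against the hippocampus Ppp2r5a was 1.26-fold higher (0.34 ± 0.07, FDR 0.00050) and Strn 1.32-fold lower (-0.40 ± 0.10, FDR 0.0026).

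Of 9 assembly factors and inhibitors tested, 3 were higher and 0 lower in cortex than in hippocampus, beside 13.5% and 12.4% of all genes. In cerebellum 1 was higher and 4 lower than in hippocampus, and 2 were higher and 4 lower than in cortex, beside 51.7% of all genes that differed in the latter. Arpp19 and Ensa encode the related inhibitors that block PP2A with a B55 subunit once phosphorylated. Arpp19 had 66.5 to 81.5 cpm in hippocampus, 264 to 362 cpm in cortex and 47.2 to 62.4 cpm in cerebellum. It was 4.22-fold higher in cortex than in hippocampus (2.08 ± 0.08, FDR 9.9e-16, place 8 of 11133 by p) and 5.50-fold lower in cerebellum than in cortex (-2.46 ± 0.08, FDR 2.5e-18). Ensa was likewise highest in cortex, 3.48-fold lower in cerebellum than in cortex (-1.80 ± 0.16, FDR 2.3e-10). Ppme1, the PP2A methylesterase, was 2.36-fold lower there (-1.24 ± 0.10, FDR 9.7e-11), and Ptpa, the PP2A activator, was 1.37-fold higher in cerebellum than in hippocampus (0.46 ± 0.08, FDR 2.1e-05). Of the related catalytic subunits, Ppp1cc was 2.64-fold higher in cerebellum than in cortex (1.399 ± 0.22, FDR 4.0e-06), at no more than 14.4 cpm, and Ppp6c 1.33-fold higher (0.41 ± 0.07, FDR 3.2e-05). Ppp5c was 1.32-fold higher in cortex than in hippocampus (0.40 ± 0.10, FDR 0.0016).

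**Figure D5:**
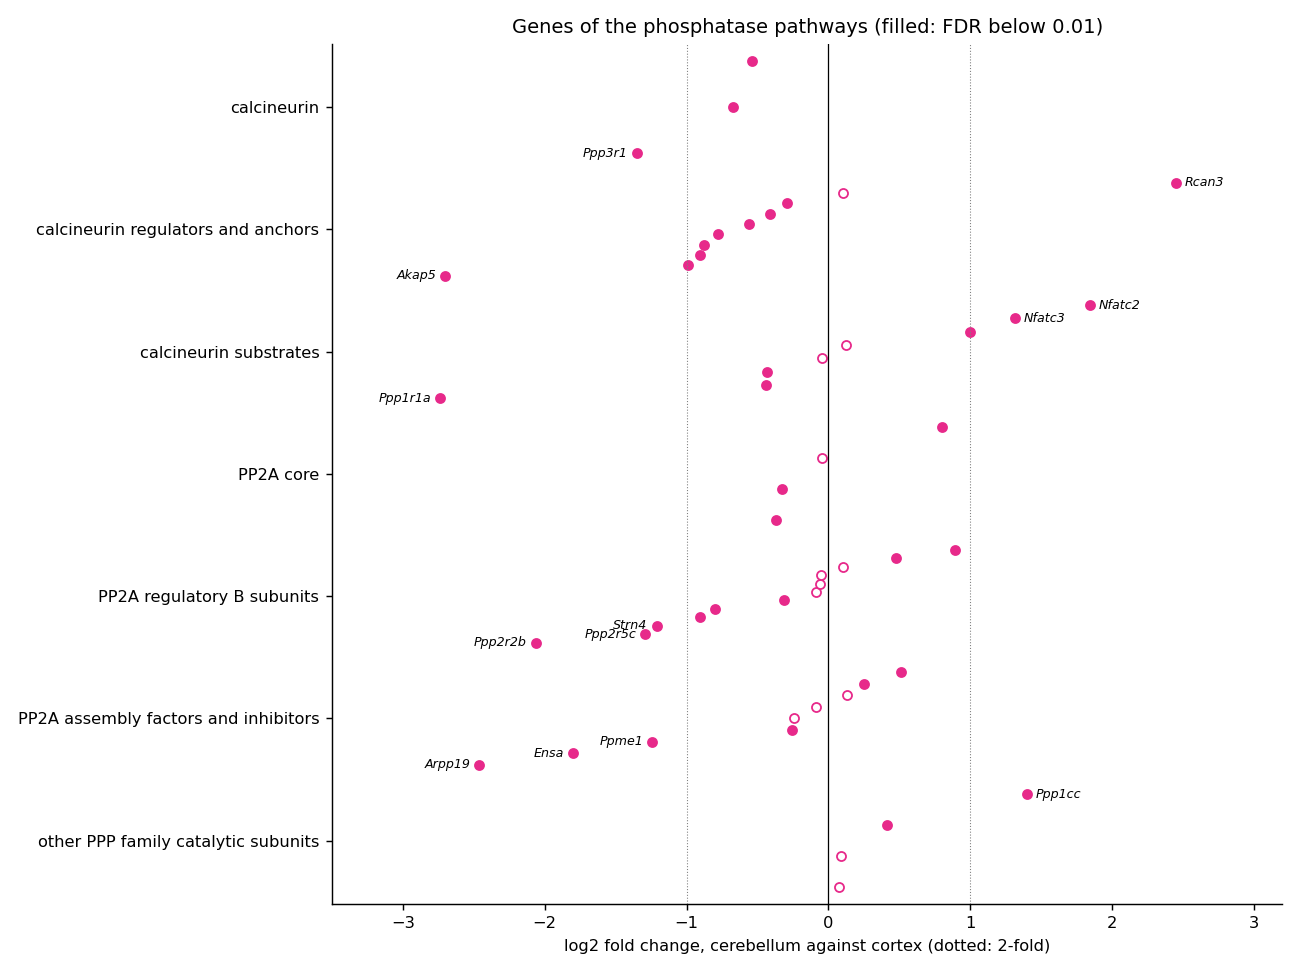
The horizontal axis is the log2 fold change of the cerebellum against the cortex for each tested gene of the phosphatase lists, filled where the FDR was below 0.01 and named where the difference was over 2-fold. Most filled points of the calcineurin, regulator and B subunit lists lay on the lower side, and Rcan3, at 2.45, was the one regulator called on the higher side.

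The genes whose log2 cpm ran most like that of each member over the 22 libraries are given as a description, since region separates the libraries and correlations are high for many genes. For Ppp3ca they were Gm20754 (Pearson r 0.96), Nckap1 (0.96) and Camk1d (0.96), for Ppp3cb Dbn1 (0.97), Faah (0.97) and Ptk2b (0.96), and for Ppp3r1 Mmd (0.98), Fgf13 (0.98) and Frzb (0.98). Ppp2r1a was nearest to Sorcs2 (0.89), Cadm1 (0.87) and Cntnap2 (0.86), and Ppp2r1b to Tle2 (0.93), Naaladl2 (0.92) and Iffo2 (0.91). The values were lower for Ppp2ca, with Cops8 (0.77), Meis3 (0.74) and Vwf (0.72), and for Ppp2cb, with Adap1 (0.87), Rap1gap2 (0.86) and Impdh1 (0.86). Among the members themselves, Ppp3cb and Ppp3r1 had an r of 0.95, Ppp3ca had 0.89 with Ppp3cb and 0.90 with Ppp3r1, and Ppp2r1b had -0.80, -0.88 and -0.84 with the same 3 genes.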

How the data were processed

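The authors deposited raw counts per RefSeq transcript for 22 CelSeq2 libraries, without normalization. Per the study's methods, STAR was the aligner (build mm10) and the End Sequence Analysis Toolkit the counter; versions, strand and the handling of molecular identifiers are not given in the sources used here. Of 85964 transcripts, 80.6% (81.4% of counts) matched RefSeq genes of GRCm38.p6 without regard to version, and the transcript with the largest sum stood for each gene. Groups and mice came from the labels, and replicates are separate mice. A minimum of 5 cpm in 2 or more libraries was required, of the region for genotypes and of all 22 for regions. TMM scaling and the quasi-likelihood test of edgeR 4.0.16 (R 4.3.3) were used, with calls at a Benjamini-Hochberg FDR below 0.01. limma 3.58.1 was fitted for genotypes over 3 regions, with DESeq2 1.42.0 as an alternative and Python 3.11 for exact tests. Simulated counts were used to try the edgeR genotype fits, the cerebellum against the cortex, the interaction and the limma fit. Of simulated 2-fold genotype changes, 56.5% were recovered in hippocampus, 65.2% in cortex and 49.0% in cerebellum. All 8 members are named, with up to 3 called genes of largest log2 fold change per pathway list and comparison, and the 3 genes of highest correlation per member (prior count 2). The members and lists were chosen with earlier results of these data known. Regions pair within mice by the labels. Deviations within a mouse correlated by 0.098 (cortex and hippocampus), 0.047 (cerebellum and hippocampus) and -0.0046 (cerebellum and cortex) on average. Other scalings, filters, transcripts, tools, the mouse block, single genotypes and leaving out each library were tried. A single gene of the regulator list is not reported here by name.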

Additional observations from a re-analysis of the deposited data

Results flagged for a closer look

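Among 32 groups of 4 libraries, 5 held a library whose gap to the other 3 exceeded the 95% critical value of Dixon's test, where chance gives about 1.6. In WT cerebella Ppp3cb was 140 cpm in m244 against 119 to 123 cpm. In CD cortices Ppp3cc was 0.35 cpm in m190, which is 2 counts, against 1.49 to 1.69 cpm. Ppp3r1 was 166 cpm in the CD hippocampus of m242 against 187 to 189 cpm. It was 176 cpm in the WT cortex of m240 against 141 to 145 cpm, and without that library the Ppp3r1 difference between cortex and hippocampus passed (-0.33, FDR 0.0058). In WT cortices Ppp2r1b was 17.4 cpm in m244 against 18.4 to 18.5 cpm, and all 4 were above the highest CD cortex (14.9 cpm).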

How the results depend on the processing

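The regional calls on Ppp3ca, Ppp3cb, Ppp3r1 and Ppp2r1b in the cerebellum held under every setting tried, with the exceptions of other members given in the report. Between genotypes no member was called under any setting. With no filter on low values, 7, 3 and 19 genes were called between genotypes in hippocampus, cortex and cerebellum (6, 3 and 10 over 2-fold), 24 in the interaction test, 1471 over 2-fold between cortex and hippocampus (937 as reported), and 1 member there. DESeq2 called 2 genes in hippocampus and 1 in cortex (2 and 1 over 2-fold), and 4 members between cortex and hippocampus, Ppp3cb (FDR 0.0082) and Ppp3r1 (FDR 0.0098) being added. The table total as library size also added both (FDR 0.0058 and 0.0047). WT libraries alone, 11 in all, gave 1396 genes and 1 member between cortex and hippocampus and 3754 genes between cerebellum and hippocampus (2879 and 5648 as reported). CD libraries alone, also 11, gave 1675 genes and 1 member in the first. Ppp2cb lost its cortex calls in single genotypes (FDR 0.028 to 0.26). Directions turned for values near 0: Ppp3r1 between genotypes in cortex (0.0031 with no filter, 0.016 with the table total), Ppp2cb in cerebellum against hippocampus (0.087 with the table total, 0.026 in CD alone), and Ppp2ca in cerebellum against cortex (0.11 with the table total) and against hippocampus (-0.051 in WT alone); the cause was not tested.

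Leaving out each library in turn gave 0 to 1 genes called between genotypes in cortex and in cerebellum, also over 2-fold (1 without the CD cortex of m190 and 1 without the CD cerebellum of m242), and 1 to 2 members between cortex and hippocampus. Ppp2cb lost that call without the hippocampus of m118, m138, m162, m190 or m244 or the cortex of m190, m240 or m242. Values whose sign turned ranged over Ppp3cb -0.11 to 0.0070, Ppp3r1 -0.15 to 0.10, Ppp2cb -0.11 to 0.027, Ppp2r1b -0.16 to 0.049 (CD against WT, hippocampus), then Ppp3r1 -0.12 to 0.093, Ppp3cb -0.0095 to 0.070, Ppp3ca -0.26 to 0.0067 (CD against WT, cortex), then Ppp3ca -0.0098 to 0.048, Ppp2r1b -0.011 to 0.34, Ppp2ca -0.0057 to 0.069 (CD against WT, cerebellum), then Ppp3cb -0.011 to 0.029, Ppp3r1 -0.011 to 0.068, Ppp2r1a -0.017 to 0.051, Ppp2cb -0.00012 to 0.046 (CD against WT, 3 regions together), then Ppp2cb -0.081 to 0.0037, Ppp2ca -0.016 to 0.033 (cerebellum against hippocampus). Of the ratios these were Ppp3ca to Ppp3cb -0.18 to 0.074, Ppp2ca to Ppp2cb -0.10 to 0.072, Ppp3r1 to Ppp3ca plus Ppp3cb -0.051 to 0.25 (CD against WT, hippocampus), then Ppp2ca to Ppp2cb -0.13 to 0.043, Ppp3ca to Ppp3cb -0.040 to 0.015 (CD against WT, cerebellum), then Ppp2ca to Ppp2cb -0.023 to 0.079 (cerebellum against hippocampus), then Ppp3r1 to Ppp3ca plus Ppp3cb -0.051 to 0.18 (CD against WT, cortex). Leaving out 1 mouse gave 0 to 9 regional ratios past the threshold, 0 without m118, m162, m190, m240, m242 or m244, and the 9 differences kept their direction. Fewer mice raise the smallest p that this exact test can give, so the lost calls do not show dependence on single mice. With mouse as replicate block, 2714, 5420 and 5619 genes and 2, 5 and 6 members were called between regions, and no call on a member changed. The depth, with 1 to 20 counts of Ppp3cc per library, limits what can be said of that gene.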
